A study of Mus musculus with 50 samples.

Results

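The core subunits of Polycomb repressive complex 2 (PRC2) were followed in mouse embryonic stem cells (ESCs): Ezh1, Ezh2, Eed, Suz12, Rbbp4 and Rbbp7, listed by name and all found among the 18055 genes of the expression table. RNA-seq covered 4 lines with 2 libraries each, 8 libraries in all, and 28 lists of ChIP-seq peaks or ATAC-seq regions, 1 library per line and target, were searched at the same 6 genes. The lines were wild-type E14TG2a ESCs (WT, named E14 for some targets), ESCs without Ezh2 (Ezh2 KO), ESCs without either gene (Ezh1/2 dKO), and Ezh2 Y726D ESCs, in which a point mutation of Ezh2 sits in an Ezh1 KO background. Ezh2 R685C ESCs, also made in Ezh1 KO cells, were used for SUZ12, H3K27me3 and H3K27ac, and Ezh1/2 dKO ESCs carrying Flag-HA-tagged human EZH1 for HA. All grew on gelatin in 2i/LIF medium. The cells with tagged EZH1 had in addition been transfected and selected with puromycin before they were collected. The mutant lines are CRISPR/Cas9 clones of the WT line, so a property of a clone and of its genotype cannot be told apart. Labels of some Y726D samples leave out the Ezh1 KO, and these were taken as the same line.

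PRC2 methylates lysine 27 of histone H3 (H3K27), and its trimethylated form marks silenced developmental genes in ESCs. EZH2 and its paralog EZH1 are alternative catalytic subunits with a SET domain, EED binds trimethylated H3K27 and stimulates the enzyme, SUZ12 is the scaffold that holds the complex together, and RBBP4 and RBBP7 are histone-binding WD40 proteins that also serve in other chromatin complexes. Catalytic activity requires an EZH protein together with EED and SUZ12.

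The edits concern Ezh1 on mouse chromosome 11 and Ezh2 on chromosome 6. The 2 altered codons of Ezh2 are shown because they are what distinguishes the point mutants from the deletions. In build mm9, Ezh2 lies at chr6:47480273-47545340 on the minus strand, with 20 exons of which 19 are coding and a reading frame of 746 residues. Codon R685 lies in exon 18 and codon Y726 in exon 19, both in the part of the gene that encodes the SET domain. The reference sequence around them is given 5′ to 3′ on the coding strand, with the codon in capitals, at chr6:47481994-47482056 for R685C and at chr6:47481712-47481774 for Y726D. The second stretch runs past the end of its exon into the intron.
Ezh2 R685 codon: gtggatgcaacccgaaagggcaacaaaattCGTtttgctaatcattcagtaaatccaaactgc
Ezh2 Y726 codon: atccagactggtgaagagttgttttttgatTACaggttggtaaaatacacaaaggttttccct

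Ezh1 lies at chr11:101052429-101087777 on the minus strand, Eed at chr7:97103166-97129493 on the minus strand and Suz12 at chr11:79806608-79847625 on the plus strand. Rbbp4 lies at chr4:128984344-129012614 on the minus strand and Rbbp7 at chrX:159198334-159217024 on the plus strand. The 250 bases before the main start site of the catalytic subunits and of Eed are shown because the acetylation lists described later divide these promoters, with peaks at the starts of Ezh2 and Eed and none at that of Ezh1. CG dinucleotides are in capitals. The stretches are chr11:101087778-101088027 for Ezh1, chr6:47545030-47545279 for Ezh2 and chr7:97129494-97129743 for Eed, each read on the minus strand.
Ezh1 promoter: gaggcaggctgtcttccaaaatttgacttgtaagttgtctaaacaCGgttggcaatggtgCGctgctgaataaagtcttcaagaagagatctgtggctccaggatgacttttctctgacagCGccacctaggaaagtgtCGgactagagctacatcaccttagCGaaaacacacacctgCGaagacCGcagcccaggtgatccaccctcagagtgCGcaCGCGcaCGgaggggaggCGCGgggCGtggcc
Ezh2 promoter: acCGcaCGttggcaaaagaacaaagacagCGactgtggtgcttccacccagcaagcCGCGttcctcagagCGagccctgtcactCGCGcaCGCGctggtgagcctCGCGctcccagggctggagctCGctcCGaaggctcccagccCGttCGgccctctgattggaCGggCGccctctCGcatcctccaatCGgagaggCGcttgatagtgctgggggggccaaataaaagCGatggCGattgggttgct
Eed promoter: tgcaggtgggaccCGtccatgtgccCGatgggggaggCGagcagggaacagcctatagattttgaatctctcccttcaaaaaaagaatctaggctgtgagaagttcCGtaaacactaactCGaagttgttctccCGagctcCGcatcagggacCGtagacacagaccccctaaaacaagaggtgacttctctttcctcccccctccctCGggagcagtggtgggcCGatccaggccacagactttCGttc

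These stretches held 14 CG dinucleotides at Ezh1, 23 at Ezh2 and 11 at Eed. The same window held 37 at Suz12, 30 at Rbbp4 and 33 at Rbbp7, against a median of 15 over 13537 genes tested for expression. Ezh1 and Eed were thus under the median and the other 4 members above it. The letters CCAAT, searched on both strands, were present at Ezh2, Suz12, Rbbp4 and Rbbp7 and in 35.6% of all these promoters. GGGCGG was present at Suz12, Rbbp4 and Rbbp7 and in 56.9% of promoters, and CACGTG at Rbbp4 alone of the members and in 8.37% of promoters.

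The RNA libraries held between 3604123 and 5181553 reads, and replicates of a line correlated between 0.953 and 0.978 over genes. Expression is given as normalised read counts, in which 1 read is worth about 1 unit. The 12 ESC markers (Pou5f1, Sox2, Nanog and others) were all measured, and their summed level lay between 15964 and 20473 in the 8 libraries. Marker sums of other lineages moved with the genotype. The sum of 7 trophectoderm markers was 365 to 487 in WT and 532 to 632 without Ezh2 alone, and it was 709 to 1332 in Ezh2 Y726D and 839 to 1038 in Ezh1/2 dKO, where Krt8, Krt18 and Gata3 rose in both. The sum of 7 primitive endoderm markers was 146 to 171 in Ezh1/2 dKO, where Gata4 and Dab2 rose, 55.9 to 63.3 in Ezh2 Y726D, 20.01 to 36.6 in WT and 10.5 to 29.997 in Ezh2 KO. Of 7 fibroblast markers 5 were in the table, with sums of 4.81 to 12.01 in WT, 106 to 116 in Ezh1/2 dKO, 86.1 to 88.3 in Ezh2 Y726D and 14.5 to 16.7 in Ezh2 KO. Most of these fibroblast sums came from Thy1, and the collagen genes Col1a1 and Col1a2 stayed under 12 in every library. The part of these shifts in the values of the PRC2 genes was not tested.

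The first question was whether each line lacked the catalytic subunit that its label names. Ezh2 read 598 and 546 in the WT libraries and 422 and 613 in Ezh2 Y726D, and it read 1.05 and 0.968 in Ezh2 KO and 0.824 and 1.78 in Ezh1/2 dKO. Deletion lines and the other lines were separated without overlap, and Ezh2 Y726D lay on both sides of WT. The KO values stood for 2 reads over both Ezh2 KO libraries and 3 over both Ezh1/2 dKO libraries, against 1015 reads in WT. The ratio of WT to Ezh2 KO was 565 with a 95% counting interval of 156 to 4669, and that of WT to Ezh1/2 dKO was 443 with an interval of 151 to 2150. These intervals cover counting error alone. In the limma fit, Ezh2 fell by 8.16 ± 0.39 (SE, n = 2 libraries per line) on the log2(count + 1) scale in Ezh2 KO (adjusted p = 4.70e-05) and by 7.99 ± 0.39 in Ezh1/2 dKO (adjusted p = 5.68e-05). In Ezh2 Y726D the difference from WT was -0.17 ± 0.39 (adjusted p = 0.910), with a 95% interval of -1.04 to 0.71.

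Ezh1 read 372 and 378 in Ezh2 KO and 227 and 377 in WT, and it read 24.1 and 15.7 in Ezh2 Y726D and 14.01 and 20.4 in Ezh1/2 dKO. The lines made in Ezh1 KO cells were the low ones, without overlap with the other lines, while the WT libraries differed more from each other than the Ezh2 KO libraries did. Reads at Ezh1 did not go to 0: 40 remained over the Ezh1/2 dKO libraries and 41 over the Ezh2 Y726D libraries, against 562 in WT. The counting ratio of WT to Ezh1/2 dKO was 18.4 (95% interval 13.3 to 26.0) and that of WT to Ezh2 Y726D was 15.4 (95% interval 11.2 to 21.8). Ezh1 fell by 4.03 ± 0.35 on the log2 scale in Ezh1/2 dKO (adjusted p = 0.00269) and by 3.84 ± 0.35 in Ezh2 Y726D (adjusted p = 0.00229). Between these lines it differed by 0.19 ± 0.35 (adjusted p = 0.866), with a 95% interval of -0.60 to 0.98.

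Whether Ezh1 mRNA rises where Ezh2 is deleted was asked by the comparison of Ezh2 KO with WT. The difference was 0.36 ± 0.35 (adjusted p = 0.815), with a 95% interval from -0.43 to 1.15, and the libraries overlapped. The estimate rested on 1 control: without WT replicate 1 it was -0.0083, so these data do not resolve a change of this size. When Ezh1 was also removed, in Ezh1/2 dKO against Ezh2 KO, its mRNA fell by 4.39 ± 0.35 (adjusted p = 0.00197).

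**Figure D1:**
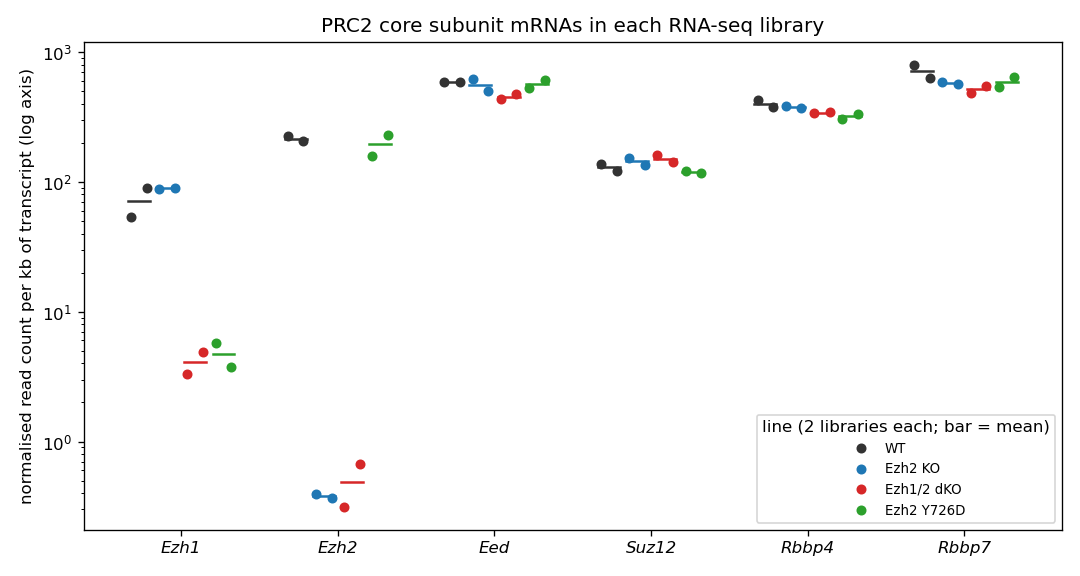
Normalised read counts per kb of transcript of the 6 PRC2 core genes (log axis) in the 4 lines. Each library is 1 point, with a bar at the mean of the 2 libraries. Ezh2 sits between 0.311 and 0.670 per kb in both lines that lack it. Ezh1 sits between 3.33 and 5.72 per kb in both lines made in Ezh1 KO cells, while each of the other 4 genes stays within a narrow band.

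Levels of different genes were compared per kb of transcript. WT means were 71.8 ± 25.3 (SD, n = 2) for Ezh1, 216 ± 13.8 for Ezh2, 586 ± 0.34 for Eed, 129 ± 11.9 for Suz12, 401 ± 33.8 for Rbbp4 and 716 ± 121 for Rbbp7. In both WT libraries the order from high to low was Rbbp7, Eed, Rbbp4, Ezh2, Suz12 and Ezh1, and neighbours in this order did not overlap. Suz12, the scaffold of every PRC2 complex, was thus the member with the lowest level per kb after Ezh1. Ezh1 supplied 19.3% and 30.4% of the summed Ezh1 and Ezh2 level per kb in the WT libraries. The share was 99.6% in both Ezh2 KO libraries and 3.47% and 1.58% in Ezh2 Y726D. The sum of both catalytic subunits per kb was 279 and 296 in WT, 165 and 235 in Ezh2 Y726D, 88.9 and 90.3 in Ezh2 KO, and 3.64 and 5.52 in Ezh1/2 dKO. The 4 lines were separated in this order without overlap. In bulk libraries, fewer cells with a transcript and less RNA per cell cannot be told apart.

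The shared subunits answer whether the remaining PRC2 genes move once the enzymes are gone. Eed, the reader subunit, read 1211 and 1210 in WT, 896 and 978 in Ezh1/2 dKO, 1282 and 1030 in Ezh2 KO, and 1087 and 1252 in Ezh2 Y726D. Ezh1/2 dKO was the low line, below both WT libraries, and the others overlapped with WT. The difference from WT in Ezh1/2 dKO was -0.37 ± 0.14 (adjusted p = 0.214), with a 95% interval of -0.70 to -0.05, and it did not pass the threshold of 0.1.

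Suz12 read 603 and 530 in WT, 701 and 618 in Ezh1/2 dKO, 668 and 592 in Ezh2 KO, and 531 and 513 in Ezh2 Y726D. It was the only member whose Ezh1/2 dKO libraries both lay above WT, by 0.22 ± 0.15 (adjusted p = 0.450, 95% interval -0.11 to 0.55). The Ezh2 Y726D libraries lay below those of Ezh1/2 dKO, by -0.33 ± 0.15 (adjusted p = 0.374). Neither difference passed.

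Rbbp4 read 1872 and 1661 in WT, 1355 and 1470 in Ezh2 Y726D, 1505 and 1509 in Ezh1/2 dKO, and 1703 and 1639 in Ezh2 KO. Both Ezh1 KO-derived lines lay below WT, by -0.23 ± 0.12 in Ezh1/2 dKO (adjusted p = 0.328) and by -0.32 ± 0.12 in Ezh2 Y726D (adjusted p = 0.244, 95% interval -0.58 to -0.06). Rbbp7 read 1797 and 1414 in WT, 1088 and 1222 in Ezh1/2 dKO, 1323 and 1279 in Ezh2 KO, and 1201 and 1452 in Ezh2 Y726D. The WT libraries of Rbbp7 were far apart, and Ezh2 KO and Ezh1/2 dKO lay below both. In Ezh1/2 dKO the difference was -0.47 ± 0.15 (adjusted p = 0.152, 95% interval -0.81 to -0.12). Without WT replicate 2 it was -0.64 and passed (adjusted p = 0.0826), so this call turned on 1 library. Rbbp7 made up between 58.7% and 66.0% of the summed Rbbp4 and Rbbp7 level per kb in the 8 libraries. How reads that fit both of these paralogs were counted is not given in the sources used here.

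Counted over the 6 members, 1 passed against WT in Ezh2 KO (Ezh2), where 0.411% of all 13872 genes tested passed. In Ezh1/2 dKO 2 passed (Ezh1 and Ezh2), with 5.24% of all genes, and in Ezh2 Y726D 1 passed (Ezh1), with 3.33%. Each of these is a gene deleted in that line, so the counts follow the editing. Eed, Suz12, Rbbp4 and Rbbp7 passed in none of the 3 comparisons. Their largest difference from WT was that of Rbbp7 in Ezh1/2 dKO. Both libraries lay below both WT libraries for 5 members in Ezh1/2 dKO (24.5% of all genes), 2 in Ezh2 KO (17.6%) and 2 in Ezh2 Y726D (18.1%), and above them for Suz12 in Ezh1/2 dKO (28.0% of all genes). Leaving out Ezh1 and Ezh2, the 3 members below WT in Ezh1/2 dKO were Eed, Rbbp4 and Rbbp7. Between mutant lines, Ezh1 alone of the members passed for Ezh1/2 dKO against Ezh2 KO (3.78% of all genes) and Ezh2 alone for Ezh2 Y726D against Ezh1/2 dKO, at 7.82 ± 0.39 higher (1.90% of all genes). Ezh1 and Ezh2 both passed for Ezh2 Y726D against Ezh2 KO (4.19%). The F-test over the 4 lines was passed by Ezh2 (rank 4 of 13872 by p) and Ezh1 (rank 5) and by 7.60% of all genes.

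**Figure D2:**
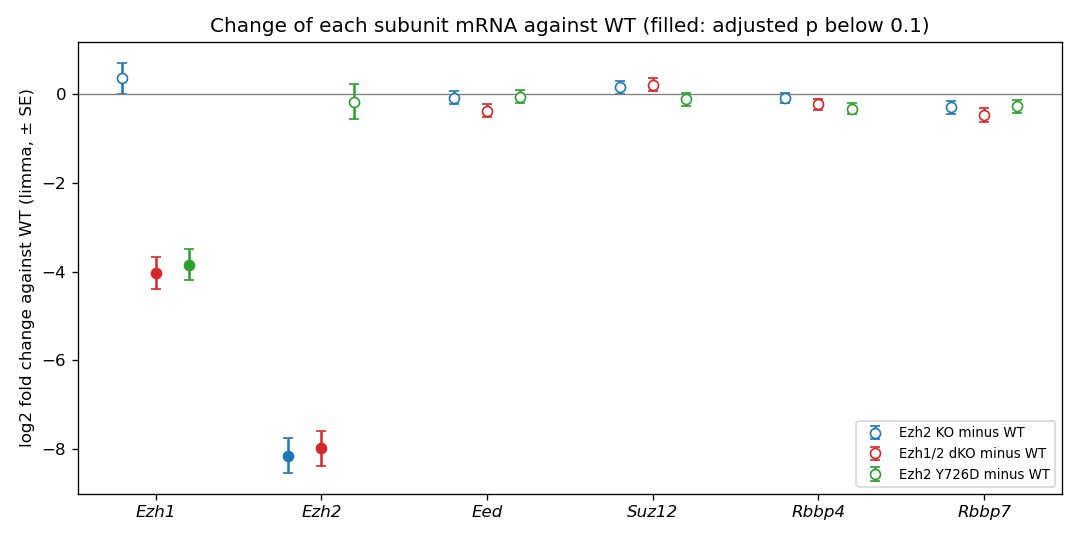
Difference of each member from WT on the log2(normalised count + 1) scale in each of the 3 other lines. Bars show ± SE of the limma fit. The deleted genes lie between -8.16 and -3.84, and the 4 shared subunits between -0.47 and 0.22.

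No tested gene next to Ezh1 or Ezh2 passed against WT. Of 21 tested genes within 200 kb of Ezh1, 0 passed against WT in any of the 3 lines, and the median difference was between -0.03 and 0.06. The 1 tested gene within 200 kb of Ezh2, Cul1, differed by -0.06 in Ezh2 Y726D, -0.13 in Ezh2 KO and -0.21 in Ezh1/2 dKO, and did not pass. Genes beside the unedited Rbbp4 and Suz12 did include passing ones, which were looked at after their values were seen. Of 11 tested genes within 200 kb of Rbbp4, Yars (-0.68 ± 0.16, adjusted p = 0.0773) and Zbtb8a (-0.84 ± 0.20, adjusted p = 0.0820) fell in Ezh2 Y726D, where the median of the 11 was -0.61, below the -0.32 of Rbbp4 itself. In Ezh1/2 dKO Zbtb8a also fell, by 1.03, and the median was -0.17. Over the 877 tested genes of chromosome 4, which holds Rbbp4, the median was -0.10 in Ezh2 Y726D, beside -0.01 over all genes. In Ezh1/2 dKO both medians were 0.01. Of 7 tested genes within 200 kb of Suz12, Atad5, Crlf3 and Rnf135 fell in Ezh1/2 dKO. The median of the 7 in that line was -0.74, and Suz12 stood at 0.22. Rnf135 also fell in Ezh2 Y726D, where the median of the 7 was -0.30. Over all 13872 genes tested, 5.24% passed in Ezh1/2 dKO and 3.33% in Ezh2 Y726D, counting both directions.

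The partners of the core were read from fixed lists. Of 8 accessory subunits, which steer PRC2 to chromatin, 6 were in the table (Jarid2, Aebp2, Mtf2, Phf1, Phf19 and Lcor) and 0 passed against WT in any line, with list medians of 0.38 in Ezh2 Y726D, 0.27 in Ezh2 KO and 0.17 in Ezh1/2 dKO, beside -0.01, -0.01 and 0.01 over all genes. Of the 15 listed genes of other complexes that hold RBBP4 or RBBP7, and of 4 H3K27 demethylases and acetyltransferases, 0 passed against WT. Of 19 PRC1 subunits, 3 passed in Ezh1/2 dKO (5.24% of all genes) and 2 in Ezh2 Y726D (3.33%), all higher, and 0 in Ezh2 KO (0.411%). Over all genes, 568 of the 727 that passed in Ezh1/2 dKO and 265 of the 462 in Ezh2 Y726D were higher. PRC1 is the second Polycomb complex, and its CBX proteins bind trimethylated H3K27. Cbx8 rose by 3.36 ± 0.63 in Ezh1/2 dKO (adjusted p = 0.0325) and by 2.99 ± 0.63 in Ezh2 Y726D (adjusted p = 0.0545). Bmi1, a PCGF subunit, rose by 1.41 ± 0.28 in Ezh1/2 dKO (adjusted p = 0.0391), and Cbx2 by 1.09 ± 0.22 in Ezh2 Y726D (adjusted p = 0.0480). PRC1 list medians were 0.07 in Ezh2 Y726D, -0.12 in Ezh2 KO and 0.00 in Ezh1/2 dKO.

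The genes whose pattern over the 8 libraries was most like that of each member were found among 11413 genes by Pearson correlation of log2 values. They were Brwd1 (0.985) and Dnmbp (0.984) for Ezh1 and Gtse1 (0.971) and Prr12 (0.970) for Ezh2. Mrpl21 (0.959) and Mrps18b (0.959) were nearest to Eed, and Pcnxl4 (0.954) and Cyp7b1 (0.948) to Suz12. Uck2 (0.976) and Hdac1 (0.973) were nearest to Rbbp4, and Ecd (0.988) and Usp14 (0.987) to Rbbp7. These values describe 8 libraries that share lines and depth. Hdac1, which encodes a deacetylase found in complexes with RBBP4, lies 180734 bp from Rbbp4 and is 1 of its 11 tested neighbours.

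The promoters of the members were then searched for PRC2 itself and its mark, within 5 kb of any annotated start site. Peaks here are places where a library exceeded its own background, with a -log10 p given by the authors' peak caller, so they say where signal was called and not how much there was. The depth behind each list is unknown. In WT ESCs, 0 of 6 members had a SUZ12 peak, against 14.2% of the genes tested for expression, and 0 of 6 had an H3K27me3 peak, against 18.2%. The nearest WT SUZ12 peak was 19.8 kb from Ezh1, 46.5 kb from Rbbp4, 129 kb from Suz12, 309 kb from Ezh2, 321 kb from Eed and 601 kb from Rbbp7. The members also had 0 of 6 for SUZ12 in Ezh2 Y726D (9.85% of genes), Ezh2 R685C (6.89%), Ezh2 KO (2.96%) and Ezh1/2 dKO (0.613%). For H3K27me3 they had 0 of 6 in Ezh1/2 dKO (0.0843% of genes), Ezh2 KO (13.0%) and Ezh2 Y726D (1.41%). In Ezh2 R685C (22.8% of genes) 2 members, Ezh1 and Ezh2, had an H3K27me3 peak near an internal start site, and neither had one within 5 kb of the gene's 5′ end.

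H3K27 acetylation, a mark of active promoters and enhancers, was listed for the 4 mutant lines, and WT was not used here. All 6 members had a peak within 5 kb of a start site in Ezh2 KO (59.8% of tested genes), Ezh2 Y726D (71.3%) and Ezh2 R685C (71.7%), and 5 in Ezh1/2 dKO (45.1%), where Rbbp7 had none. Within 1 kb of the main start, Ezh1 had no acetylation peak in any of the 4 lines. It was counted through other peaks within 5 kb of an annotated start. In Ezh2 KO there were 3, none inside the gene and the strongest from -5604 to -4448 bp (-log10 p 18.5). In Ezh2 Y726D there were 9, of which 5 lay inside the gene, with the strongest from -5969 to -4480 bp (29.5). In Ezh2 R685C there was 1, from -5612 to -2954 bp (25.3), and in Ezh1/2 dKO there were 5, of which 1 lay upstream and 4 on exons inside the gene, with the strongest from 22952 to 23291 bp (18.5). At the Ezh2 start the -log10 p was 64.0 in Ezh2 R685C, 35.6 in Ezh2 Y726D, 32.1 in Ezh2 KO and 15.98 in Ezh1/2 dKO. At Eed it was 76.3, 48.1, 66.0 and 37.1 in the same order, the highest of the members in each line. At Suz12 it was 50.05, 31.9, 23.9 and 21.3, at Rbbp4 53.3, 19.98, 28.7 and 19.98, and at Rbbp7 17.0, 10.5, 15.0 and none. Ezh2 R685C had the highest value at all 5 of these starts, and the lists held 41185 peaks in Ezh2 R685C, 40829 in Ezh2 Y726D, 25483 in Ezh2 KO and 17618 in Ezh1/2 dKO. An acetylation peak was thus listed at the start of Ezh2 also in both lines in which Ezh2 mRNA fell.

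**Figure D3:**
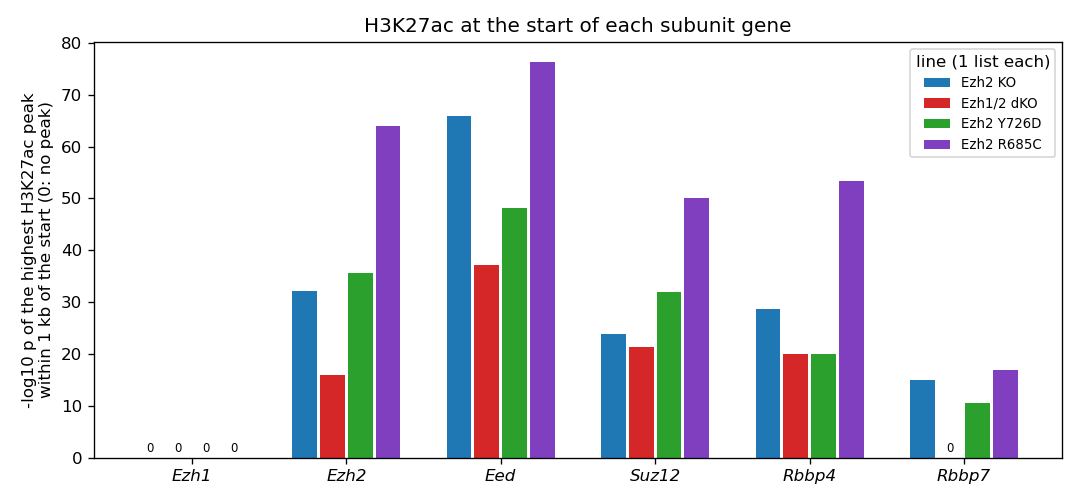
Strength of the H3K27ac peak within 1 kb of the main start site of each member (-log10 p of the best peak) in the 4 mutant lines, 1 library each. Ezh1 has no peak in any line, Rbbp7 none in Ezh1/2 dKO, and Eed has the highest value in each line.

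H3K27me1 and H3K27me2 form broad regions, read here as the share of a gene's bases covered. These lists and those of ATAC-seq are permissive, with a median -log10 p of 1.26 to 1.51, and each region joins short blocks. Read by the blocks alone, coverage of the 6 gene bodies together went from 46.6% to 2.79% for E14 H3K27me1 and from 34.5% to 0.913% for WT ATAC, so the percentages below are spans of regions. Within 5 kb of a start site, H3K27me1 regions were listed for 6 of 6 members in E14 (83.1% of tested genes), 3 of 6 in Ezh1/2 dKO (76.4%), 1 of 6 in Ezh2 KO (53.2%) and 3 of 4 in Ezh2 Y726D (85.9%), whose list holds no region on the chromosomes of Ezh2 and Rbbp4. H3K27me2 regions were listed for 4 of 6 members in E14 (84.7%), 5 of 6 in Ezh1/2 dKO (85.5%), 2 of 6 in Ezh2 KO (43.1%) and 4 of 6 in Ezh2 Y726D (87.1%). The paper reports that ESCs without either EZH gene, and Y726D ESCs, lost every form of this methylation. The H3K27me2 lists still held 478485 regions in Ezh1/2 dKO and 475687 in Ezh2 Y726D, beside 270131 in E14 and 194708 in Ezh2 KO. What the regions of Ezh1/2 dKO and Ezh2 Y726D hold was not tested, so they are not a measure of either mark. Over whole gene bodies, E14 H3K27me1 covered 77.1% of Ezh2, 58.3% of Eed, 52.4% of Rbbp4, 41.9% of Ezh1, 9.16% of Suz12 and 6.09% of Rbbp7, beside a median of 38.1% over all tested genes. Suz12 and Rbbp7 were the members with little of this mark. In Ezh2 KO no H3K27me1 region touched any of the 6 gene bodies, where 43.3% of tested genes had 1 or more. In Ezh1/2 dKO coverage was 22.7% at Ezh1, 12.1% at Eed, 0.962% at Ezh2 and 0 at Suz12, Rbbp4 and Rbbp7. Ezh2 carries a large deletion in both of these mutant lines, and Ezh1 does in Ezh1/2 dKO. Low coverage at a deleted gene is therefore not a measure of the mark. E14 H3K27me2 covered 10.2% of Ezh2 and 4.86% of Ezh1 and none of the other 4 members.

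ATAC-seq, which marks DNA open to transposase, was read along Ezh2 to compare the deletion lines with the others. A region was listed at the start of all 6 members in all 4 lines, as for 99.4% of tested genes. The first 17487 bp of Ezh2, through exon 2, had 38.9% of their bases in ATAC regions in WT and 21.7% in Ezh2 Y726D, and 32.9% in Ezh2 KO and 25.8% in Ezh1/2 dKO. The other 47270 bp, from intron 2 to the end, had 23.5% in WT (17 regions) and 22.8% in Ezh2 Y726D (14 regions), but 0.370% in Ezh2 KO and 0.364% in Ezh1/2 dKO, where no region lay inside. Coverage in the deletion lines thus lay between that of WT and Ezh2 Y726D up to exon 2, and below both after it. In the deletion lines the covered bases were the end of a region over exon 2, and the region before it ended at 12098 bp in Ezh2 KO and at 15263 bp in Ezh1/2 dKO. The region over exon 2 had nearly the same ends in all 4 lines, as described later, and reads of Ezh2 cDNA would map there too, so the lists do not fix where the remaining DNA ends. H3K27me1 covered 94.0% of the 47270 bp in E14.

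**Figure D4:**
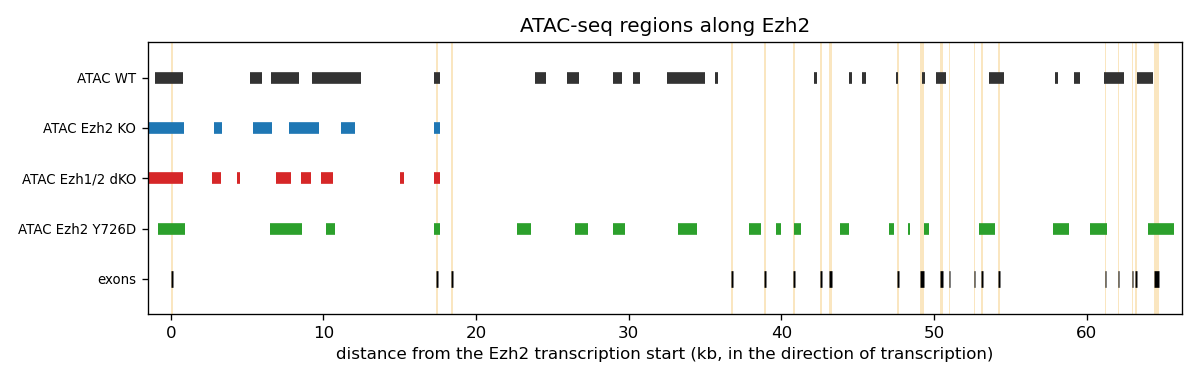
ATAC-seq regions along Ezh2 (x axis: distance from the main start site, rows: the 4 lines, 1 library each), with exons drawn as boxes. Regions run along the whole gene in WT and Ezh2 Y726D and stop just after exon 2 in Ezh2 KO and Ezh1/2 dKO.

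Ezh1 differed in where its regions lay. In 15 of the 28 lists at least 1 region fell in Ezh1, and 122 of these 128 regions touched an exon. In 10 of the 15 lists every region did. Of the regions starting more than 1 kb past the start site, 95.2% touched an exon at Ezh1 (118 of 124), and between 26.0% and 34.0% did at the other 5 members. This pattern was chosen after its values were seen and is given without a test.

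Among the lists of narrow peaks, the coding bases were most fully covered in the HA ChIP of Ezh1/2 dKO ESCs with HA-tagged human EZH1, which were made with a vector holding the human cDNA. That list had 16 peaks in Ezh1, all touching an exon, while the untagged Ezh1/2 dKO list had 0. The peaks covered 95.6% of the 2241 coding bases of Ezh1 and 18.8% of the introns between them, but 0% of the 1827 bases after the stop codon. Within 5 kb of a start site, HA peaks were listed for 1 of 6 members in the tagged line (Ezh1, 10.8% of tested genes) and 0 of 6 in the untagged line (4.06%). H3K27me3 in Ezh2 R685C had 12 peaks in Ezh1, covering 79.7% of coding bases, 10.8% of introns and 0% after the stop codon, and WT had 0. H3K27ac had 5 peaks each in Ezh1/2 dKO and Ezh2 Y726D, covering 40.4% and 38.4% of coding bases and 2.16% and 1.95% of introns, and 0 in Ezh2 KO and Ezh2 R685C.

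Among the broad marks, H3K27me1 covered 99.5% of the coding bases of Ezh1 in E14, 98.2% in Ezh1/2 dKO and 94.5% in Ezh2 Y726D, and 0% in Ezh2 KO. H3K27me2 covered 4.64% in E14, 97.8% in Ezh1/2 dKO and 96.4% in each of Ezh2 KO and Ezh2 Y726D. The E14 H3K27me1 list had its highest -log10 p of 184901 regions, 26.0, in Ezh1. The coding exons of Ezh1 were thus covered both in E14 and in lines made in Ezh1 KO cells. In Ezh1/2 dKO and Ezh2 Y726D this coverage is not a measure of the marks, as described above. Reads of Ezh1 cDNA, from a vector or another source, would map to the same exons as reads of the gene. Their part in these regions was not tested, so regions at Ezh1, and its place in the promoter counts above, cannot be read as chromatin of the locus alone.

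**Figure D5:**
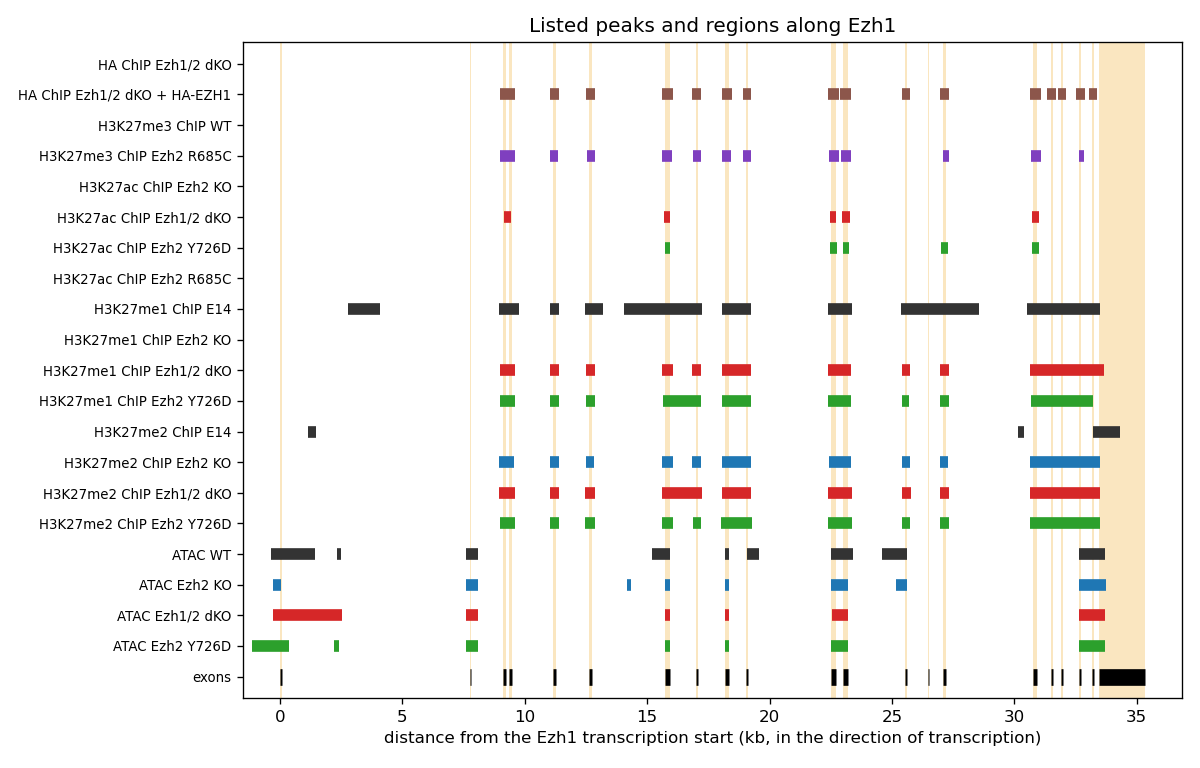
Listed regions inside Ezh1 (x axis: distance from the start site, shaded bands: exons), 1 row per list. Some rows, such as H3K27me3 in WT, hold no region. In the HA-EZH1 row 16 peaks sit on exons, and in the ATAC rows a region over exon 2 recurs in every line.

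Most ATAC regions in Ezh1 touched an exon too. They covered from 41.1% (Ezh1/2 dKO) to 47.9% (WT) of its coding bases. Unlike the HA and H3K27me3 peaks, they also covered 9.74% (WT) to 11.2% (Ezh2 KO) of the bases after the stop codon. A region over exon 2 of Ezh1, a noncoding exon from 7743 to 7809 bp past the start, ran from 7586 or 7587 to 8081 or 8082 bp in all 4 lines. Its -log10 p was 2190 in Ezh2 Y726D, 2095 in Ezh2 KO, 1395 in WT and 1200 in Ezh1/2 dKO, rank 1 of every ATAC list (752012 to 798241 regions). Over exon 7 (15740 to 15916 bp) a region ran from 15741 to 15916 bp in Ezh1/2 dKO, from 15746 to 15915 bp in Ezh2 Y726D and from 15747 to 15916 bp in Ezh2 KO, almost to the base, and from 15202 to 15915 bp in WT. In Ezh2 the region over exon 2, which holds its first coding bases, began between 17242 and 17250 bp and ended between 17658 and 17666 bp, with -log10 p of 49.0, 48.8, 24.5 and 26.6 in the same order of lines. All 4 lines had both regions with nearly the same ends, including the lines in which Ezh1 or Ezh2 mRNA fell.

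In Ezh2, the H3K27me3 list of Ezh2 R685C had 1 peak, from 63017 to 63258 bp past the start (-log10 p 17.9). It began 12 bp past codon R685, which is shown above, and ended 27 bp before codon Y726. In the other 4 lines no H3K27me3 peak lay inside Ezh2.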

How the data were processed

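The authors aligned RNA-seq reads (SMART-seq libraries) with TopHat, and HTSeq-count gave the counts per gene, which they normalised with DESeq2. The deposited values are thus a signal, namely reads after division by the size factor of their library, and multiples of 1 read within 0.01 made up 100% of those above 0. For ChIP-seq and ATAC-seq, the authors aligned reads to mm9 with Bowtie, took out duplicates with Picard, and MACS2 was their peak caller. Each deposited peak has a -log10 p and a fold enrichment (not reported here), except in the HA lists, which give positions alone. Drosophila spike-in scaling does not enter the lists.

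The plan assumed normalised counts and was kept. Genes with a mean of at least 5 (13872 of 18055) were fitted in R 4.3.3 with limma 3.58.1 (trend, log2(normalised count + 1), all 8 libraries in 1 fit, 4 residual degrees of freedom, Benjamini-Hochberg over all genes tested). Passing means an adjusted p under 0.1, and called means also a log2 difference of 1 or more in size. As alternatives, the recovered reads were tested with edgeR 4.0.16 and DESeq2 1.42.0. The study's reporting summary calls its replicates biological, while the labels number them without naming cultures. If a pair shared a culture, the p-values would measure technical spread alone. The fit was tested on simulated data. Peaks were assigned with Python 3.11.15 to the GENCODE annotation of mm9, where a symbol match was found for 16570 genes, a synonym match for 807 and none for 678. Figures were drawn with matplotlib 3.10.9. Ratios of counts have 95% exact intervals.

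The members and lists were chosen with earlier results of these data known. Named by rule besides the members were called genes of the lists (at most 4 per list) and the 2 genes of mean count at least 20 most correlated with each member. Passing genes within 200 kb of Ezh1 or Ezh2 were also to be named, and there were 0. Named outside this rule were Cul1, passing genes near Rbbp4 and Suz12, the accessory subunits in the table and some markers. The lists were core and accessory PRC2, PRC1, other RBBP4/7 complexes, H3K27 demethylases and acetyltransferases, and markers of ESCs, primitive endoderm, trophectoderm and fibroblasts. The values of 1 passing PRC1 gene are not reported here. Dppa3 was the 1 ESC marker that passed, at 1.32 ± 0.33 in Ezh1/2 dKO (adjusted p = 0.0775) and -2.66 ± 0.33 in Ezh2 Y726D (adjusted p = 0.0113). The authors' own fold changes and p-values against WT were deposited too and were not used. RING1B, H2AK119ub, WT H3K27ac, input, EZH2 rescue lines and DMSO or MG132 samples were not analysed here.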

Additional observations from a re-analysis of the deposited data

Results flagged for a closer look

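Inside Ezh1, the HA list of Ezh1/2 dKO ESCs with HA-tagged human EZH1 held 16 peaks, against 0 in the untagged Ezh1/2 dKO control, a signal outside the expression comparisons. The H3K27me3 list of Ezh2 R685C ESCs held 12 peaks inside Ezh1 and 1 peak inside Ezh2, against 0 at both genes in WT. Each list comes from 1 library, and the cause of these peaks was not tested.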

How the results depend on the processing

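Over 19 alternatives to pseudocount, filter, scaling, test and libraries, the number of members that passed in the 7 comparisons changed in 1 of 132 values, from 2 to 3 in Ezh1/2 dKO without WT replicate 2 (Rbbp7), and of 456 log2 differences of single members 445 kept their direction and their side of the threshold. Quantile normalisation reversed the sign of Eed in Ezh2 Y726D (0.013) and of Rbbp4 in Ezh2 KO (0.011) and Ezh1/2 dKO (0.020). Leaving out 1 library gave ranges across 0 against WT for Ezh1 (-0.0083 to 0.72), Eed (-0.23 to 0.082) and Rbbp4 (-0.16 to 0.0087) in Ezh2 KO, for Ezh2 (-0.44 to 0.10) and Eed (-0.16 to 0.048) in Ezh2 Y726D, and for Ezh1 between Ezh2 Y726D and Ezh1/2 dKO (-0.11 to 0.48). For Rbbp7 in Ezh1/2 dKO the range was -0.64 to -0.30. The cause was not tested, beyond the smaller number of libraries. Where a line was left with 1 library, it was assumed to vary like the others.

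Replicate numbers did not pair the libraries, whose deviations correlated between -0.41 and 0.29 across lines. With the replicate number as a block, 2 members passed in Ezh1/2 dKO and 1 each in Ezh2 KO and Ezh2 Y726D, as without it, and the genes passing in Ezh2 KO went from 57 to 34. Counts over all genes moved more than those of members. In Ezh2 KO they ran from 6 (without Ezh2 KO replicate 2) to 179 (DESeq2), with 16 without WT replicate 1 and 147 without WT replicate 2. In Ezh1/2 dKO the 727 genes became 3 or 9 with either Ezh1/2 dKO library left out. In Ezh2 Y726D the 462 became 32 when only the compared libraries were fitted. Between mutants, Ezh1/2 dKO against Ezh2 KO ran from 53 to 1860 around 524, Ezh2 Y726D against Ezh1/2 dKO from 14 to 632 around 264, and Ezh2 Y726D against Ezh2 KO from 98 to 1269 around 581.

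Of 70 recounts of members with a peak, 22 gave another number and 12 moved by over 1.5 times, which are given here. The other 10 moved by 1 or 2 members. A window of 1 kb left 1 member for H3K27me3 in Ezh2 R685C, 3 for H3K27me1 in E14, 0 in Ezh2 KO, and for H3K27me2 1 each in E14 and Ezh2 KO, 2 in Ezh2 Y726D and 3 in Ezh1/2 dKO. Peaks with a -log10 p of at least 20 left 1 member for H3K27me3 in Ezh2 R685C and 2 for H3K27ac in Ezh1/2 dKO. Taking the 5′ end of the gene as the sole start left 0 for H3K27me3 in Ezh2 R685C, 1 for H3K27me2 in Ezh2 KO and 0 for HA.

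Summed coverage of the 6 gene bodies depended on the reading of a broad region. The bases of deleted genes were counted in these sums. The methylation sums of Ezh1/2 dKO and Ezh2 Y726D are not a measure of the marks. With only its blocks, H3K27me1 coverage was 2.79% in E14 and 1.44% in Ezh1/2 dKO. In Ezh2 Y726D it was 1.92%, over the 4 genes on chromosomes that its list holds. H3K27me2 coverage by blocks was 0% in E14, 2.23% in Ezh1/2 dKO, 1.90% in Ezh2 Y726D and 0.898% in Ezh2 KO. ATAC coverage by blocks was 1.23% in Ezh2 KO, 1.13% in Ezh2 Y726D, 0.913% in WT and 0.814% in Ezh1/2 dKO, and in the same order 14.8%, 14.4%, 22.5% and 20.8% with regions above the median score of their list. That cut gave H3K27me1 coverage of 41.8% in E14 and 4.56% in Ezh1/2 dKO, and H3K27me2 coverage of 0.640% in E14, 4.92% in Ezh1/2 dKO and 4.63% in Ezh2 Y726D.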
